A study of Homo sapiens with 6 samples.

Results

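The 5 microRNAs (miRNAs) described here, hsa-miR-10a-5p, hsa-miR-10b-5p, hsa-miR-196a-5p, hsa-miR-196b-5p and hsa-miR-196b-3p, come from genes that lie inside the human HOX clusters. They were chosen by name among 1891 human miRNA probes, with earlier results of these data known. All 5 were among the 570 probes whose signal reached 50 intensity units on at least 2 of the 6 arrays, and 2 of them, both of the miR-10 family, reached it on all 6. The array's identifiers for the probes are 13485, 10925, 10990, 145889 and 145995, in the order of the names above.

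The samples were 3 human colorectal cancer lines, Lovo, SW620 and HT29, each stably carrying a pSUPER gfp-neo vector. In the knockdown the vector expressed a short hairpin RNA (shRNA) that targets TGFB1, which encodes the secreted growth factor TGF-β1, and in the control it expressed a control shRNA. There was 1 knockdown array and 1 control array for each line, from cultures grown and harvested independently per the series' design text. The labels do not say whether each transfected line was 1 clone or a pool. Groups follow the titles of the samples. A second label field names the knockdown vector on the 2 Lovo samples alike and the control vector on the 2 HT29 samples alike, so SW620 is the only pair whose labels all match, and TGFB1 has no probe here that could check this. All directions below therefore rest on the libraries as titled.

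HOX genes encode transcription factors that set position along the body axis, and they sit in 4 clusters, HOXA to HOXD. The miR-10 and miR-196 genes lie among them and are transcribed in the same regions. As background, miR-196 is known to direct cleavage of HOXB8 mRNA through an almost fully paired site, and miR-10 miRNAs are known to target HOX transcripts such as HOXD10 and to occur in tumours of several tissues. A mature miRNA recognises its targets mainly through its seed, bases 2 to 8 from the 5′ end.

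The mature sequences are shown because they define which probes could share target RNA. They are from RefSeq (GRCh38.p14), run 5′ to 3′ and carry the seed in capitals. RefSeq entries were matched for 4 of the 5 miRNAs.
miR-10a-5p: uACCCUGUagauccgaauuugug
miR-196a-5p: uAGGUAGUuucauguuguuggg
miR-196b-5p: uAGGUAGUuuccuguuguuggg
miR-196b-3p: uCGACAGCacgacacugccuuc

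MIR10A places miR-10a-5p at chr17:48579904-48579926 on the minus strand, where the gene overlaps HOXB3 and lies between HOXB4 and HOXB5. MIR10B lies between HOXD8 and HOXD4. The miR-196a-5p sequence is encoded at 2 loci. One is MIR196A2 at chr12:53991762-53991783 on the plus strand, between HOXC10 and HOXC9, and the other is MIR196A1 at chr17:48632532-48632553 on the minus strand, which overlaps HOXB-AS4 between HOXB9 and PRAC2. A probe for the mature miRNA cannot tell these 2 loci apart. MIR196B lies between HOXA9 and HOXA10 and overlaps HOXA10-AS and the readthrough gene HOXA10-HOXA9, with miR-196b-5p at chr7:27169528-27169549 and miR-196b-3p at chr7:27169493-27169514, both on the minus strand.

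The 4 sequences fall into 3 seed groups, since miR-196a-5p and miR-196b-5p share the seed AGGUAGU. These 2 miRNAs differ by 1 substitution, A12C, where miR-196a-5p is given first and positions count from its 5′ end. Whether the probes for them bind each other's target was not tested, so their values may not be separate measurements. The 2 arms of miR-196b stand in 1 hairpin of 84 bases, shown with the arms in capitals because no array detected both of them.
MIR196B hairpin: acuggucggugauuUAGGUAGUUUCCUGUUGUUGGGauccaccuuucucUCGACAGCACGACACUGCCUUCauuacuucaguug

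Each probe was printed as 4 spots, a pair in each of 2 print blocks, the first and the second location, which lie 18 blocks apart. Signal is the spot's foreground minus background intensity, and a miRNA was taken as detected where the median of its 4 spots was at least 50. Between 398 and 542 human miRNAs were detected per array, and the median background lay between 86 and 202 units. Levels are log2 intensities after normexp background correction with an offset of 50 and quantile normalisation, and each difference is knockdown minus control on that log2 scale. The offset makes differences of dim probes too small. Within a line there was 1 array per condition, so an error given there is the SE over the spots of 1 probe on each array and covers the print only.

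Across the lines, miR-196a-5p was the only one of the 5 miRNAs that was lower after TGFB1 knockdown in every line and at both print locations, with quantile scaling. No member passed the test across lines, which was limma with the cell line as a block and p-values adjusted over all 570 probes. Of the 5 members, 0 were called at an adjusted p under 0.05, as were 0% of all probes tested. At an unadjusted p under 0.05, 2 of 5 members were lower, miR-196a-5p and miR-196b-5p, against 8.77% of all probes that were lower and 1.93% that were higher. The median difference of the 5 was -0.67, beside 0.05 over the 570 probes. All 5 mean differences were below 0, as were 45.1% of all probes, and 3 of 5 members were lower in all 3 lines, as were 17.2% of all probes. These shares hold for quantile scaling, and scaling to the spike controls put the HT29 differences of all 5 above 0.

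The miR-196 family had its clearest values in miR-196a-5p. In Lovo its median signal was -4 in the knockdown and 209 in the control. In SW620 it was 112 in the knockdown and 201 in the control. In HT29 it was -56 in the knockdown and 289 in the control. The 3 control arrays all detected miR-196a-5p, while the knockdown array did so only in SW620. In HT29 the 4 knockdown spots read -62, -58, -45 and -54, and the 4 control spots read 355, 322, 162 and 256. In Lovo the knockdown spots read 5, 5, -18 and -13, and the control spots read 416, 350, 13 and 68. The spots of the 2 arrays did not overlap in either of these lines. In SW620 the knockdown spots read 80, 64, 144 and 157 and the control spots 321, 223, 179 and 165, again without overlap but closer together.

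With quantile scaling, the level of miR-196a-5p was at least 1.82-fold lower in the Lovo knockdown than in the control. In HT29 it was at least 2.32-fold lower with that scaling, while spike control scaling turned the HT29 difference to 0.36. Both fold values are bounds for quantile scaling only, because the knockdown arrays did not detect miR-196a-5p. They set the control level against the lowest level of a detected probe on the knockdown array, or the dim probe's own where that is higher. In SW620, where both arrays detected it, the difference was -0.40 ± 0.17 (SE over spots). Mean levels were 7.47 ± 0.68 in the knockdown arrays and 8.59 ± 0.19 in the control arrays (SD, n = 3 each), without overlap between the groups. Non-overlap with the knockdown lower was also seen in 9.3% of all probes, and in 2 of the 5 members, miR-196a-5p and miR-10a-5p. The difference was -1.11 ± 0.32 (SE) with a limma adjusted p of 0.227, lower in 3 of 3 lines. Without the SW620 pair, in which the effect was smallest, it was -1.47 with a limma adjusted p of 0.0119. That fit called 25 of 570 probes and kept only the Lovo and HT29 pairs, whose labels do not all match. With median scaling the difference was -1.22 with a limma adjusted p of 0.0173, and 32 of 570 probes were called. The call of miR-196a-5p thus depended on these choices.

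For miR-196b-5p, the paralogue from the HOXA cluster, the SW620 and HT29 pairs gave usable values. In Lovo its signal was 14.5 in the knockdown and 7 in the control, both under the detection limit. In SW620 the signal was 58.5 in the knockdown and 230.5 in the control. In HT29 it was -41 in the knockdown and 225.5 in the control. Knockdown cells were thus dimmer wherever either array of the pair detected it. With quantile scaling the difference in SW620 was -0.77 ± 0.14 (SE over spots), and in HT29 the knockdown was at least 2.09-fold lower. Spike control scaling turned the HT29 difference to 0.61. In both lines the spots did not overlap, with 46, 12, 74 and 71 in the SW620 knockdown against 202, 185, 259 and 318 in its control. In HT29 they were 6, 4, -89 and -86 in the knockdown against 219, 82, 326 and 232 in the control. Over all lines the mean level was 7.48 ± 0.45 in the knockdown and 8.28 ± 0.68 in the control (SD, n = 3 each). The difference of -0.80 ± 0.31 had a limma adjusted p of 0.387.

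**Figure D1:**
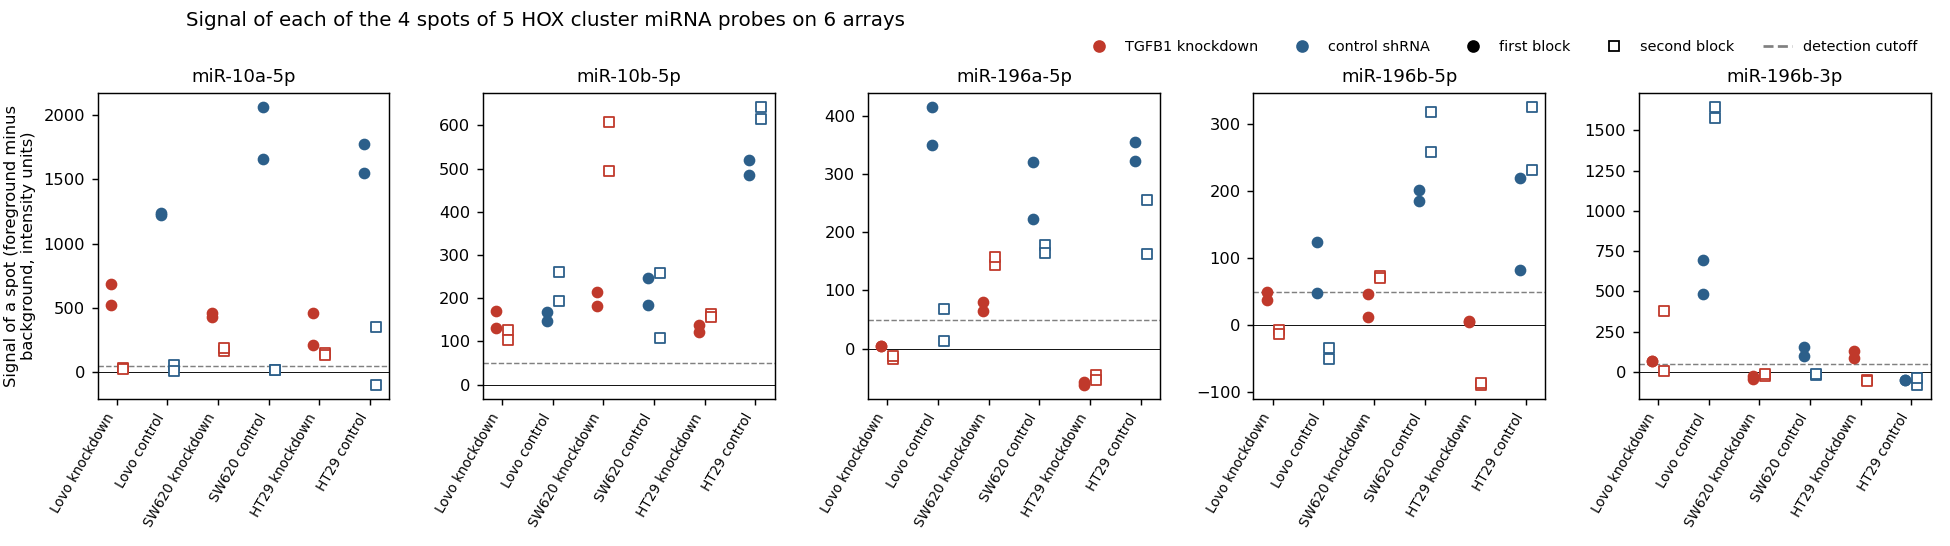
Foreground minus background intensity of every spot for the 5 miRNAs, by line, with knockdown left of control and the 2 print locations marked. Spots of miR-196a-5p did not overlap between knockdown and control in any line, while those of miR-10a-5p split by print location.

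The other arm of the same hairpin, miR-196b-3p, followed another pattern. Its signal in Lovo was 68.5 in the knockdown and 1136 in the control. In SW620 it was -27.5 in the knockdown and 42.5 in the control. In HT29 it was 17.5 in the knockdown and -49 in the control. It was thus detected only on the 2 Lovo arrays, where the other arm was not detected, and no array detected both arms. The Lovo control spots read 484, 697, 1575 and 1646, all above the knockdown spots of 70, 67, 4 and 377. The Lovo difference was -2.22 ± 0.59 (SE over spots), or -3.61 with plain background subtraction and a floor of 50. With the normexp offset of 50 and quantile scaling, it was the only difference of at least 2-fold among members detected on both arrays of a line. With plain subtraction miR-10b-5p in HT29 (-1.50) and miR-196b-5p in SW620 (-1.71) also passed 2-fold, and miR-10b-5p in HT29 did so with no scaling (-1.29), median scaling (-1.01) and cyclic loess (-1.02). In Lovo 6.37% of probes detected on both arrays were at least 2-fold lower and 6.13% at least 2-fold higher, 12.5% either way. With the offset of 50 and quantile scaling, no member detected on both arrays differed that far in SW620, where 8.15% of probes were lower, 6.25% higher and 14.4% either way, or in HT29, where 6.92% were lower, 5.03% higher and 11.9% either way. Across lines the mean level was 7.64 ± 0.24 in the knockdown and 8.31 ± 1.56 in the control (SD, n = 3 each), a difference of -0.67 ± 0.46 with a limma adjusted p of 0.600. That mean rested on 1 pair, since without Lovo it was 0.10.

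The miR-10 family was detected on all arrays. miR-10a-5p, from the HOXB cluster, had a median signal of 279.5 in the Lovo knockdown and 640 in the Lovo control. In SW620 it was 308 in the knockdown and 837.5 in the control. In HT29 it was 180 in the knockdown and 951.5 in the control. By this median, all 3 knockdown arrays were dimmer than all 3 control arrays. The normalised difference was similar in the 3 lines, -0.53 ± 1.09 in Lovo, -0.48 ± 1.08 in SW620 and -0.54 ± 0.85 in HT29, but each SE over spots exceeded its difference. Mean levels were 8.68 ± 0.20 in the knockdown and 9.20 ± 0.18 in the control (SD, n = 3 each). The difference across lines was -0.52 ± 0.33 with a limma adjusted p of 0.579.

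The spots of miR-10a-5p disagreed with each other by location. In the SW620 control they read 2064 and 1660 at the first location and 15 and 14 at the second. In the HT29 control they read 1772 and 1550 at the first and 353 and -97 at the second, where the local background of the last spot was 405 beside 166 to 196 at the others. In the Lovo control they read 1226 and 1241 at the first and 54 and 7 at the second. The first location was thus the bright one on every control array. The knockdown arrays split the same way but by less in SW620 and HT29, with mean signals at the first and second location of 606 and 29 in Lovo, 445 and 178 in SW620 and 335 and 142 in HT29.

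Averaged over the 6 arrays, the level of miR-10a-5p was 2.14 higher at the first location than at the second on the log2 scale. This was the largest such gap, rank 1 by size, among the 569 tested probes with this layout. The median absolute gap was 0.19 and its 95th percentile 0.57. The 39 other tested probes at the same pair of locations had a median gap of -0.13. The other members' gaps were -0.19 for miR-10b-5p, 0.34 for miR-196a-5p, 0.27 for miR-196b-5p and 0.07 for miR-196b-3p, so miR-10a-5p stood apart within the set too.

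The sign of the miR-10a-5p difference depended on the location read. At the first location the knockdown was lower in each line with quantile scaling, with differences of -0.70 in Lovo, -1.50 in SW620 and -1.54 in HT29. At the second location Lovo had a difference of -0.10, SW620 one of 0.96 and HT29 one of 0.51. The 2 locations thus gave opposite signs in SW620 and HT29, as they did for 30.0% of probes detected on both SW620 arrays and 29.7% of those detected on both HT29 arrays. The distance between the locations' differences was 2.46 in SW620 and 2.05 in HT29, ranks 8 and 7 by size, where the median distance was 0.33 in SW620 and 0.42 in HT29. Which location reads miR-10a-5p correctly was not tested.

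**Figure D2:**
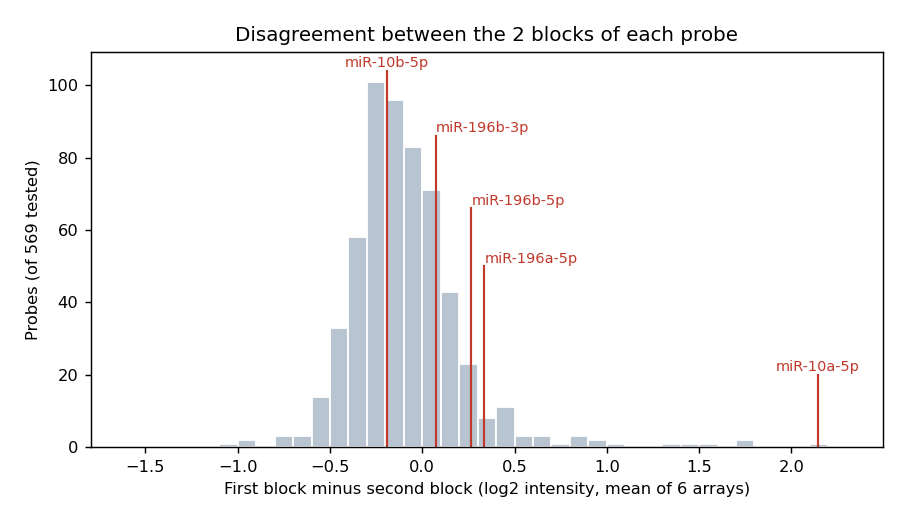
Number of probes, out of 569, by the log2 level in the first print block minus that in the second, averaged over the 6 arrays, with the 5 miRNAs marked by vertical lines whose heights carry no value. miR-10a-5p lies at 2.14, at the far right end, and the other members lie between -0.19 and 0.34.

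Print locations gave the other members' directions more evenly. For miR-196a-5p the differences at the first and second location were -1.92 and -0.67 in Lovo, -0.55 and -0.24 in SW620 and -1.97 and -1.31 in HT29. All 6 values were below 0. For miR-196b-5p 5 of 6 were below 0, the exception being 0.04 at the second location in Lovo, where it was not detected. For miR-196b-3p 3 of 6 were below 0, and in Lovo both were, at -1.90 and -2.63.

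miR-10b-5p, from the HOXD cluster, was detected on every array, and its spots read higher at the second location in the SW620 knockdown. Its signal in Lovo was 129 in the knockdown and 181 in the control. In SW620 it was 354.5 in the knockdown and 216 in the control. In HT29 it was 148 in the knockdown and 567 in the control. The knockdown was lower in Lovo and HT29 and higher in SW620 with quantile scaling, while spike control scaling turned SW620 (-0.05) and HT29 (1.02), and the direction was the same at both locations in each line. The HT29 knockdown spots, 139, 121, 164 and 157, were all under the control spots of 486, 519, 643 and 615. The SW620 spots overlapped, with 183, 214, 608 and 495 in the knockdown and 247, 185, 259 and 107 in the control. Lovo had a difference of -0.34 ± 0.13, SW620 one of 0.46 ± 0.31 and HT29 one of -0.91 ± 0.08 (SE over spots). Across lines the mean was 8.50 ± 0.46 in the knockdown and 8.76 ± 0.47 in the control (SD, n = 3 each), a difference of -0.26 ± 0.36 with a limma adjusted p of 0.810.

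**Figure D3:**
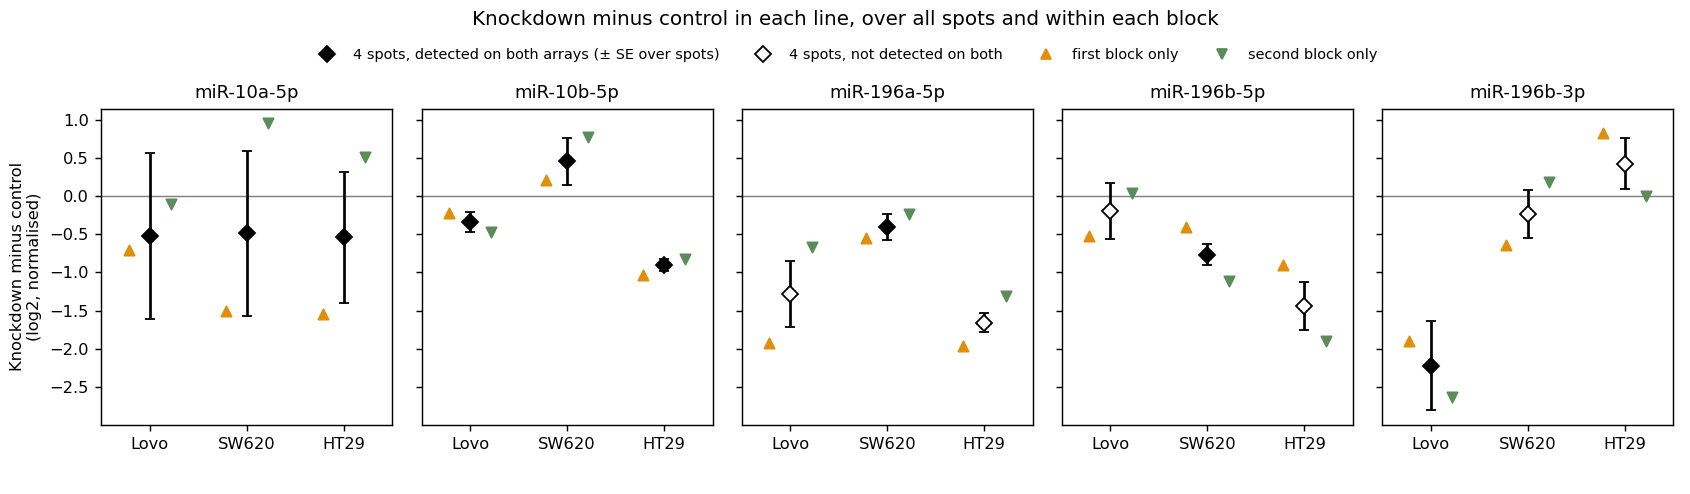
Knockdown minus control on the log2 scale for each miRNA and line after quantile scaling, over all 4 spots (diamonds with the SE over spots, open where not both arrays detected the miRNA) and within each print block (triangles). miR-196a-5p lies below 0 in both blocks of all 3 lines, and miR-10a-5p changes sign between blocks in SW620 and HT29.

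By detection, knockdown arrays gave 9 of 15 possible detections of the members and control arrays 12 of 15. In Lovo 3 members were detected in the knockdown and 4 in the control, in SW620 4 and 4, and in HT29 2 and 4. The 2 members detected on more control than knockdown arrays were miR-196a-5p and miR-196b-5p, against 24.6% of all probes tested.

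The authors' deposited value table rescales the same median spot signals, so its order within pairs is not separate evidence. It holds the ratio of the median spot signal to 1 factor per array and leaves a cell empty where that median was not above 0. Its order matched the sign of the quantile-scaled difference in most pairs. For miR-196b-5p in Lovo, detected on neither array, the table gave 0.0455 in the knockdown and 0.0208 in the control. The quantile-scaled difference there was -0.19. For miR-196a-5p it gave an empty cell in the Lovo knockdown and 0.620 in the control, 0.317 in the SW620 knockdown and 0.711 in the control, and an empty cell in the HT29 knockdown and 0.874 in the control. For miR-10a-5p the authors' deposited table gave 0.878 in the knockdown and 1.90 in the control of Lovo, 0.871 and 2.96 in SW620, and 0.572 and 2.88 in HT29. For miR-196b-3p it gave 0.215 in the Lovo knockdown and 3.37 in the Lovo control. The scale of this table is linear, and how its factor was derived is unknown.

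The direction of all 5 members in HT29 depended on the scaling between arrays. miR-196b-3p, not detected there, was at 0.42 with quantile scaling and -0.06 with none. With the spike controls, synthetic RNAs added to each sample, the HT29 knockdown was higher for miR-10a-5p (1.37), miR-10b-5p (1.02), miR-196a-5p (0.36), miR-196b-5p (0.61) and miR-196b-3p (2.25). That scaling moved the median over all 570 probes to 2.01 in HT29, 0.28 in Lovo and -0.64 in SW620, while quantile scaling left it at 0.08 in HT29, 0.06 in Lovo and -0.05 in SW620. Taken relative to that median, miR-10a-5p, miR-196a-5p and miR-196b-5p were below it in all 3 lines under each of the 5 scalings tried, of which 3 differ only by a shift per array. Relative values ranged from -1.73 to -0.28 for miR-196a-5p, from -1.52 to -0.25 for miR-196b-5p and from -0.72 to -0.30 for miR-10a-5p. The other 2 members were below the median in 10 of 15 combinations each.

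**Figure D4:**
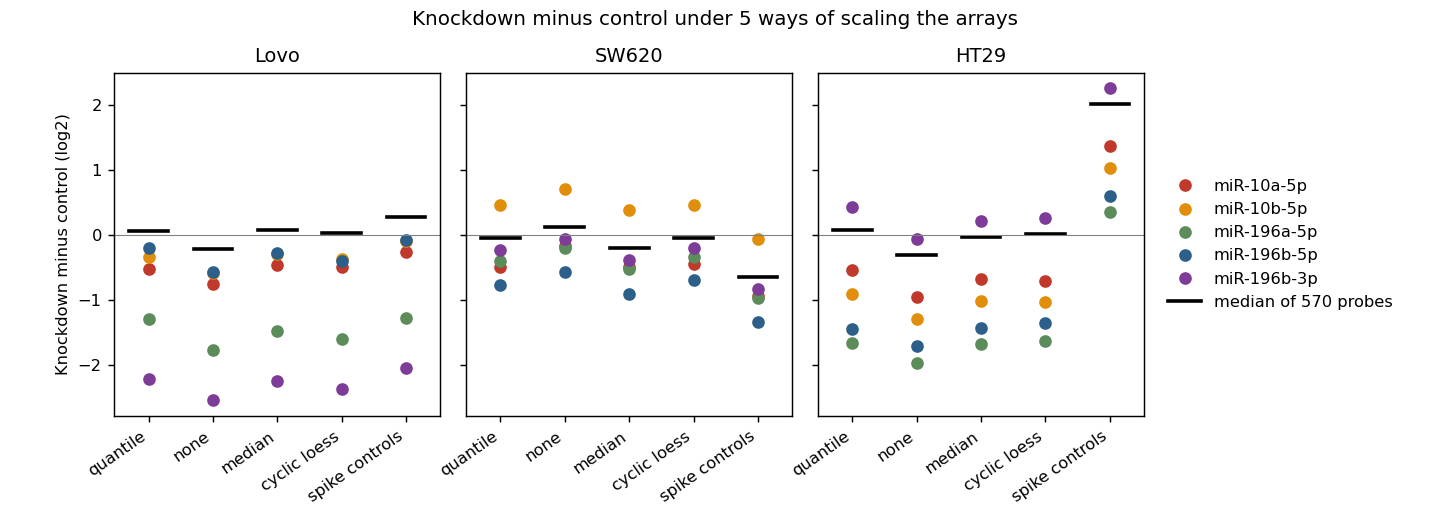
Knockdown minus control (log2) of each miRNA under the 5 scalings, by line, with black bars for the median over 570 probes. With spike control scaling the HT29 values of all 5 miRNAs lie above 0, and the probe median lies at 2.01.

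Between lines, no member differed by limma with the shRNA as a block, at an adjusted p under 0.05, and 0% of probes did. At an unadjusted p under 0.05 the F test held 1 of 5 members, miR-196b-3p, beside 5.61% of all probes. Its level was 8.99 ± 1.57 in Lovo, 7.51 ± 0.16 in SW620 and 7.43 ± 0.30 in HT29 (SD over the knockdown and the control array, n = 2 each). With quantile scaling Lovo was at least 2.65-fold above SW620, where neither array detected it, and the F test's limma adjusted p was 0.828. The Lovo mean joins a bright control and a dim knockdown array, as its SD shows.

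The 5p arm ranked the lines otherwise. miR-196b-5p had a level of 8.37 ± 0.54 in SW620, 7.85 ± 1.02 in HT29 and 7.40 ± 0.14 in Lovo, where it was not detected. With quantile scaling SW620 was at least 1.83-fold above Lovo, and the limma adjusted p of the F test was 0.907. miR-196a-5p followed the same order, with 8.46 ± 0.28 in SW620, 7.90 ± 1.17 in HT29 and 7.73 ± 0.91 in Lovo. No neighbours in either order differed beyond their spread.

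The miR-10 miRNAs had line means within 0.57 of each other on the log2 scale. miR-10a-5p had 9.10 ± 0.34 in SW620, 8.99 ± 0.38 in HT29 and 8.73 ± 0.37 in Lovo, with a limma adjusted p of 0.957. miR-10b-5p had 8.85 ± 0.64 in HT29, 8.77 ± 0.32 in SW620 and 8.28 ± 0.24 in Lovo, with a limma adjusted p of 0.907. Lovo was thus lowest for 4 of the 5 members and highest for miR-196b-3p, with quantile scaling. Scaling to the spike controls turned SW620 minus Lovo negative for miR-10a-5p, miR-196a-5p and miR-196b-5p, and HT29 minus Lovo negative for miR-10b-5p.

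**Figure D5:**
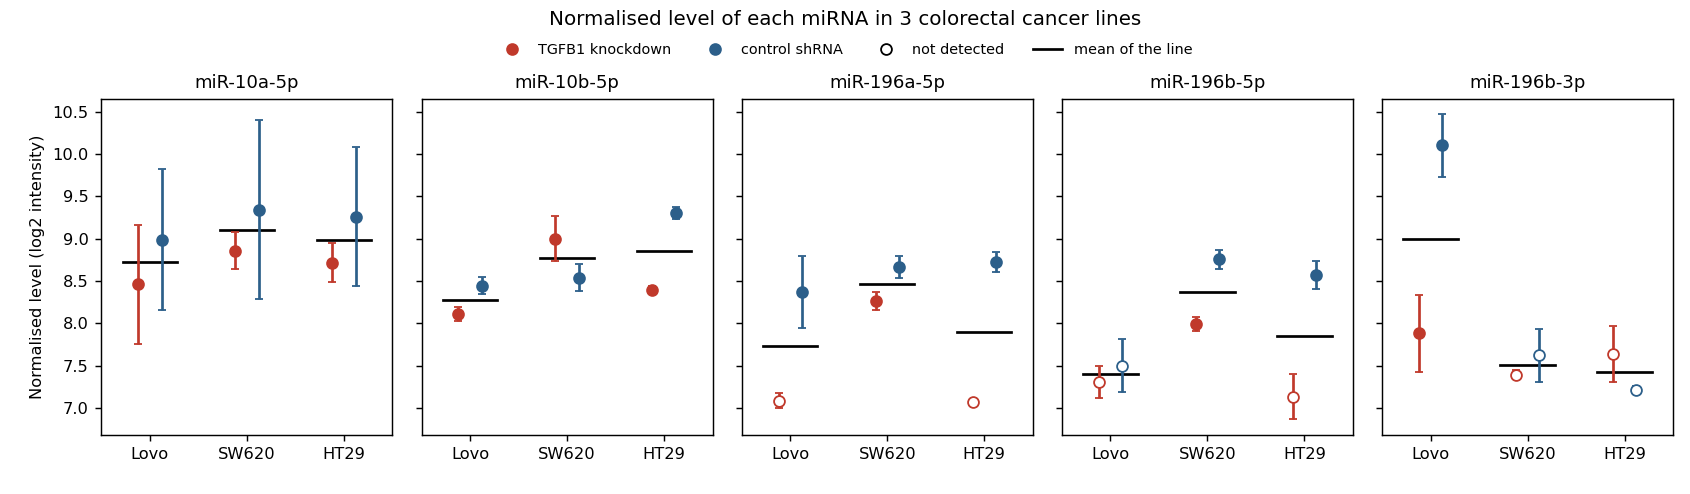
Normalised log2 level of each miRNA on the 6 arrays, by line, with knockdown left of control, the SE over spots as error bars, open symbols where not detected and a black bar for the line's mean. miR-196b-3p is detected on the Lovo arrays only, and miR-196b-5p on both SW620 arrays and the HT29 control.

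Other miRNAs of the HOX clusters were set beside the members, from a list that holds their opposite arms and miR-615, whose gene overlaps HOXC4 and HOXC5. Of these 5 companions 3 were tested, and 0 were called. miR-615-3p was detected on all 6 arrays, with a signal of 1235 in the Lovo knockdown and 869 in the control. In SW620 it was 971.5 in the knockdown and 843 in the control, and in HT29 864.5 in the knockdown and 594.5 in the control. Its difference across lines was 0.56 ± 0.38 with a limma adjusted p of 0.594, and the knockdown was higher in 3 of 3 lines with quantile scaling. In SW620 the difference was only 0.03 ± 0.28 (SE over spots) and was -0.17 at the first location, and the authors' deposited table gave 2.75 in the knockdown and 2.98 in the control. miR-10a-3p was detected on the Lovo knockdown (100.5) and the SW620 control (107.5), and miR-196a-3p on the Lovo knockdown (95.5) and the HT29 knockdown (74). miR-10b-3p and miR-615-5p were detected on 0 arrays.

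miR-99 and miR-100 miRNAs, distant relatives of miR-10 encoded outside the HOX clusters, share a stretch of sequence with miR-10a-5p, offset by 1 base. The longest shared run was 10 bases for miR-99a-5p and only 5 for miR-99b-5p. The sequence of miR-100-5p, shown for the shared run, is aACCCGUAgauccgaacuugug, and its longest run in common with miR-10a-5p is 11 bases, which starts at base 7 of miR-10a-5p and base 6 of miR-100-5p. miR-100-5p was detected only on the HT29 control (65.5). The differences across lines were 0.05 for miR-99a-5p and 0.15 for miR-99b-5p, with limma adjusted p-values of 0.967 and 0.897. Both values lay above that of miR-10a-5p with quantile scaling, and this contrast was not tested.

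The probes with the most similar pattern over the 6 arrays, by Pearson's r among 254 other probes detected on all 6, were miR-5196-3p (0.979), miR-140-3p (0.973) and miR-193a-3p (0.955) for miR-10a-5p. For miR-196a-5p they were miR-193a-3p (0.960), miR-140-3p (0.935) and miR-4429 (0.903). For miR-196b-5p they were miR-29b-3p (0.974), miR-17-5p (0.966) and miR-125a-5p (0.947), and for miR-10b-5p they were miR-30d-5p (0.978), miR-3195 (0.922) and miR-3178 (0.867). Among members, miR-10a-5p and miR-196a-5p had an r of 0.906 and the 2 arms of miR-196b one of -0.388. These are descriptions over 6 arrays that share their scaling, and the best of many candidates is high by selection.

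Markers of cell types were summed beside the members. The mesenchymal list holds 5 markers. Of these, miR-199a-3p was left out of the sum because its probe is named jointly for miR-199b-3p. Summed signal of the other 4 was 334.5 in the knockdown and 2544 in the control of Lovo. It was 1342.5 and 4777 in SW620, and 1776.5 and 4509.5 in HT29. This sum was lower in the knockdown in each pair and was mostly miR-199a-5p, with 904.5 in the knockdown and 4334.5 in the control of SW620. In SW620 miR-214-3p went the other way, with 391 in the knockdown and 261.5 in the control. Of the 4 markers, 1, 2 and 2 were detected in the knockdown arrays and 3, 3 and 4 in the control arrays of Lovo, SW620 and HT29. Gut epithelial markers summed to 8810.5 in the knockdown and 1370 in the control of Lovo, 102.5 and 386 in SW620, and 137.5 and 32.5 in HT29. Of the 8 markers, 8, 1 and 1 were detected in the knockdown and 6, 2 and 0 in the control. The largest part of the Lovo knockdown sum was miR-141-3p, with 4531 in the knockdown and 245.5 in the control. In Lovo miR-375 (386 in the knockdown and 494 in the control) and miR-200b-3p (159 and 201.5) went the other way. Blood markers summed to 279 in the knockdown and 694.5 in the control of Lovo, 1383 and 1739 in SW620, and 524 and 3261.5 in HT29. Of these 6 markers 1, 3 and 3 were detected in the knockdown and 3, 3 and 3 in the control. Against the blood sums, miR-150-5p was higher in the knockdown of Lovo (249, control 124) and HT29 (100, control 87.5). In SW620 miR-451a was higher in the knockdown (146, control -35). By marker, miR-150-5p was detected on 6 arrays, miR-142-3p on 5, miR-142-5p on 4 and miR-451a on 1. miR-223-3p and miR-144-3p were detected on 0 arrays. The part of these differences in the members' values was not tested. The samples were cultures of cancer lines, so the names of the lists do not identify cells in them. In such total RNA, fewer cells of a kind and less RNA per cell cannot be told apart.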

How the data were processed

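miRNAs were measured on 6 one-colour locked nucleic acid arrays after Hy3 labelling, per the labels' protocols. The deposited raw table gives foreground and foreground minus background intensity for 15840 spots, per the file headers. Values in the authors' processed table are a ratio, each probe's median spot signal over a factor of 282.75 to 353.75 per array. The medians of its columns were 0.372 (Lovo knockdown), 0.493 (Lovo control), 0.551 (SW620 knockdown), 0.446 (SW620 control), 0.537 (HT29 knockdown) and 0.638 (HT29 control).

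Spots were corrected by normexp with an offset of 50, averaged over a probe's spots on the log2 scale and quantile-normalised over all non-control probes with limma 3.58.1 in R 4.3.3. Human probes with a median signal of at least 50 on at least 2 arrays were tested. Knockdown was compared with control by lmFit and eBayes (intensity trend). Each pair shares its line, so line was the block, and this leaves 2 residual degrees of freedom. Lines were compared with the shRNA as a block. P-values were Benjamini-Hochberg adjusted over all tested probes. On simulated data with planted differences, the fits were checked only for the size of the estimated differences, not for their p-values.

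The members and lists were chosen with earlier results of these data known. Named genes are the 5 members, the other HOX cluster miRNAs, the miR-99 and miR-100 relatives, the listed markers and, for each member detected on at least 3 arrays, the 3 most similar probes. Intensities carry no counts, so the number of arrays limits the precision. P-values set each difference against the spread between these arrays, which limma moderates with the spread of the other tested probes. The prior degrees of freedom of the test across lines were 6.44.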

Additional observations from a re-analysis of the deposited data

Results flagged for a closer look

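miR-10b-5p moved in opposite directions between lines. Knockdown minus control was -0.34 in Lovo, 0.457 in SW620 and -0.908 in HT29 on the log2 scale with quantile scaling, and -0.09, -0.05 and 1.02 in these lines with spike control scaling. With 1 array per condition in each line, the difference between lines was not tested.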

How the results depend on the processing

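The count of probes called across lines was 0 with limma, and 61 had an unadjusted p under 0.05. It was 32 with median scaling, 5 with cyclic loess, 6 with robust eBayes and 2 without 1 probe of zero variance, and from 0 to 25 with 1 line's pair left out (0 without Lovo, 25 without SW620 and without HT29). Between lines it was 0, with 32 at an unadjusted p under 0.05, and became 15 with median scaling, 1 with cyclic loess, 1 with spike control scaling, 2 with robust eBayes, 1 from the second print location only, and from 0 to 24 with 1 array left out. The print location settings were chosen after seeing the data. Spike control scaling turned the difference across lines to 0.056 for miR-10a-5p and 0.29 for miR-10b-5p, SW620 minus Lovo to -1.15 for miR-10a-5p, -0.66 for miR-196a-5p and -0.42 for miR-196b-5p, and HT29 minus Lovo to -1.14 for miR-10b-5p. With 1 pair left out, miR-10b-5p lay between -0.62 and 0.059 (0.059 without HT29) and miR-196b-3p between -1.22 and 0.10 (0.10 without Lovo). The first print location alone gave -0.11 for miR-10a-5p in SW620 minus Lovo, and the second alone gave 0.45 for its difference across lines. The cause of these changes was not tested. For miR-196b-3p, limma's F test over the 3 lines passed in 4 of 21 alternatives, which include fits with 1 array left out. Median scaling was among the 4 (adjusted p 0.0210), and Lovo minus HT29 was 1.51 there. That F test does not say which lines differ, and the contrast of Lovo with HT29 was not tested in the alternative settings. Lovo minus HT29 kept its sign for miR-196b-3p under 21 of 21 alternatives, from 0.41 to 5.69. In the authors' value table, with empty cells set to the lowest value of their array, the difference across lines was -5.91 for miR-196a-5p (limma adjusted p 0.544) and -1.57 for miR-10a-5p. miR-196a-5p kept its sign under 18 of 18 alternatives, as did miR-196b-5p. Detection near the background limits the dim members. Neither array of the pair detected miR-196b-5p in Lovo, or miR-196b-3p in SW620 and in HT29. Knockdown and control were paired by line, and the labels carry no replicate numbers for any other pairing.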
